A study of Mus musculus with 10 samples.

Results

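The integrated stress response and serine-folate genes are 35 named mouse genes that were matched by symbol in 2 tables of heart RNA-seq values. Of the 15498 genes of the embryonic table, 30 are members, and of the 15989 genes of the adult table, 33 are members. Both tables hold 29 of them. Slc7a11 was measured only in the embryo, Atf4, Ddit4, Pck2 and Shmt2 only in the adult, and Fgf21 was not analysed here. Larp7 encodes a La-related protein that binds the small nuclear RNA 7SK. The first comparison is between whole embryonic hearts of stage E15.5, of the genotypes Larp7+/+ (3 samples, wild type) and Larp7-/- (3 samples, knockout), in which the allele is lost from every cell of the animal. The second is between the apex of hearts of 4-month-old Larp7f/f mice (2 samples, CTR, with no Cre given in the label) and Myh6Cre;Larp7f/f mice (2 samples, mCKO). The Myh6 promoter drives Cre in cardiomyocytes, so other cell types of the apex keep the floxed gene. All mice were C57BL/6, and the floxed allele is carried by both adult groups. No group carries Myh6Cre without the floxed allele, so an effect of Cre itself cannot be told apart from loss of Larp7. Nothing in the labels ties the samples of a group to separate animals, and p-values then measure only the spread between these samples.

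The integrated stress response is a shared answer to several kinds of cellular stress. Kinases such as PERK and GCN2 phosphorylate the translation factor eIF2, which lowers protein synthesis in general while the messenger RNA of the transcription factor ATF4 is translated better. ATF4 and its partners then raise genes for amino acid synthesis and import, for the serine pathway that feeds mitochondrial folate metabolism, and for feedback inhibitors of the response. In heart muscle this programme is known above all from disorders of mitochondrial function.

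The deposited values are per-million values given as whole numbers, so a gene near 1 is measured only coarsely, and the sequencing depth behind them is unknown. Each sample's values sum to between 998498 and 1001508. A knockout value and the control value that carries its replicate number add up to 1 total per gene: within 2, this held for 8328 of 8366 E15.5 genes and 8642 of 8658 adult genes with a mean of at least 10. A gene's spread is thus mirrored between the groups, the SDs of both groups are not independent, and the replicate number was kept as a block in the test. The targeted gene was checked first. Larp7 had values of 96, 88 and 103 in wild type hearts 1 to 3 and 45, 54 and 40 in knockout hearts 1 to 3 (log2 change -1.04, SE 0.17, limma with Benjamini-Hochberg adjusted p = 0.00159). In the adult, Larp7 had 26 and 28 in CTR and 26 and 24 in mCKO (log2 change -0.11, limma adjusted p = 0.933), so the apex values did not show the deletion. The adult results are therefore given for the libraries labelled mCKO.

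At E15.5 the members were shifted toward higher values in the knockout. Of 30 members tested, 28 had positive changes and 2 negative ones, against 60.7% positive among all 13609 genes tested. The median change on the log2(value + 1) scale was 0.58 for the members and 0.11 for all genes. Mthfd2, Chac1 and Sesn2 rose at an adjusted p under 0.05, 3 of 30 members, where 0.529% of all genes tested were called higher. No member fell (limma, 0 also at an unadjusted p under 0.05), and 0.103% of all genes were called lower. At an unadjusted p under 0.05 there were 16 members, or 53.3%, beside 13.9% of all genes. In 20 members, or 66.7%, every knockout heart lay above every wild type heart, beside 19.3% of all genes, and Eif4ebp1 was the 1 member with every knockout heart below, beside 8.75%. The number of calls moves with the way the spread is estimated. It was 0 when the rounding variance was left out (limma, 13 members at an unadjusted p under 0.05) and 8 when the replicate block was left out. When any 1 heart was left out, it was from 6 to 10. With the block, a heart left alone at its number adds nothing to the comparison. Fits without either heart of a number thus compare the same hearts, and each leaves 1 residual degree of freedom per gene. On simulated data made with fixed totals and rounding, false calls exceeded the nominal share in both models, so an adjusted p under 0.05 is lenient here. The members were chosen with earlier results of these data known, so these counts describe them and are no independent evidence of their direction.

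**Figure D1:**
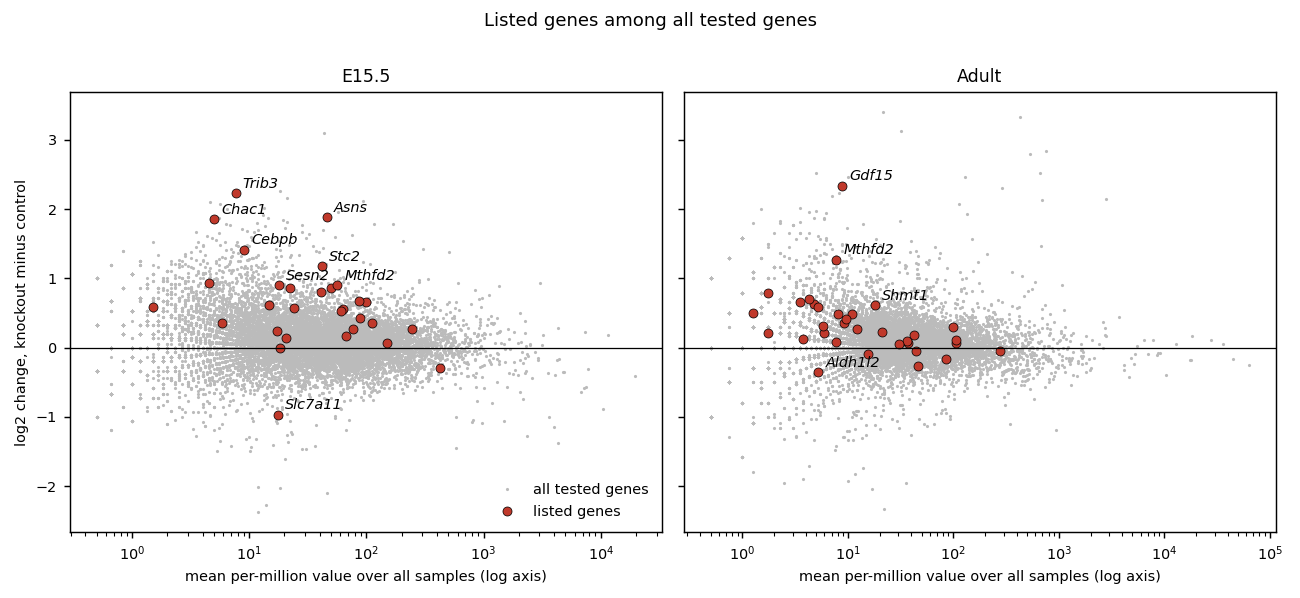
Log2 change, knockout minus control, against the mean value of the gene (log axis) for all genes tested (grey points) and the member genes (red points), for each of the 2 models. Most red points at E15.5 lie above 0 (28 of 30), while many sit within the grey cloud.

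Cell type markers differed with the genotype at E15.5. The summed value of 8 cardiomyocyte markers was 21216, 23468 and 24975 in wild type and 20085, 17834 and 16328 in knockout hearts, with no overlap. Of the 8, 6 were lower in every knockout heart, beside 8.75% of all genes. Fibroblast markers, 6 genes in sum, ranged from 4023 to 4894 in wild type and from 4895 to 5762 in the knockout, which is no overlap by a margin of 1. Of the 6, 4 had positive and 2 negative changes, and 2 were higher in every knockout heart, beside 19.3% of all genes. Col1a1 had 1213, 1209 and 759 in wild type and 1178, 1183 and 1632 in knockout hearts, higher only at number 3. Endothelial sums ranged from 1153 to 1271 and from 1252 to 1369, and macrophage sums from 82 to 96 and from 91 to 107, both with overlap. Smooth muscle and pericyte markers, 3 genes in sum, were 195, 182 and 171 in wild type and 146, 159 and 169 in knockout hearts, without overlap. Rgs5 and Kcnj8 were lower in every knockout heart, while Pdgfrb had 83, 77 and 61 in wild type and 83, 88 and 104 in knockout hearts. Of the markers, Tnnc1 and Rgs5 fell and Pdgfra rose. Knockout heart 1 stood apart in stratified epithelium markers, at 237 beside 63 to 104 in the other hearts. Liver marker sums were between 2 and 12 and skeletal muscle sums between 17 and 24. No listed marker of any of these cell types was at 0 in all samples. In bulk tissue, fewer cells of a type and less RNA per cell cannot be told apart, and the part of cell composition in the members' values was not tested.

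Among the stress kinases no change passed the test. Eif2ak3 encodes PERK, which senses misfolded protein in the endoplasmic reticulum, and had a mean of 15.7 ± 1.15 (SD, n = 3) in wild type and 18.7 ± 0.577 in knockout hearts. Eif2ak4 encodes GCN2, which senses uncharged transfer RNA, and had 19.7 ± 1.15 and 21.7 ± 0.577. The groups did not overlap for Eif2ak3 and overlapped for Eif2ak4, with log2 changes of 0.24 and 0.13. These are RNA levels, and the activity of either kinase was not measured.

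The 5 transcription factors and cofactors measured at E15.5 all had positive changes with a median of 0.61, and 0 of them passed the test (limma, 2 at an unadjusted p under 0.05). Atf5, a close relative of ATF4 that is tied to mitochondrial stress, had 19, 17 and 11 in wild type hearts 1 to 3 and 26, 27 and 33 in knockout hearts 1 to 3. Every knockout value was above every wild type value, with a log2 change of 0.86 (SE 0.22) and a limma adjusted p of 0.0641. Ddit3, which encodes the stress factor CHOP, had 14, 13 and 8 in wild type and 16, 17 and 21 in knockout hearts. Its groups also did not overlap, with a log2 change of 0.61 (0.27 without heart 3 of either group) and a limma adjusted p of 0.245. Cebpb and Cebpg encode leucine zipper proteins that pair with ATF4. Cebpb had 9, 9 and 0 in wild type and 9, 9 and 18 in knockout hearts, so that hearts 1 and 2 of both groups were equal and heart 3 of each group set its log2 change of 1.42 (SE 1.35, limma adjusted p = 0.749). Cebpg ranged from 63 to 78 and from 75 to 91. Nupr1, a small chromatin protein induced by stress, had values from 4 to 6 in wild type and from 6 to 8 in knockout hearts. Exons of Atf5, Ddit3, Cebpb and Cebpg, and of Eif2ak3, Ppp1r15a, Psph, Pck2, Shmt1, Shmt2 and Aldh1l2 among the other members, overlap those of genes on the opposite strand, and the strand setting of the counting is not stated in what was used here, so reads of both partners cannot be told apart for these genes. Cebpg also overlaps Gm44836 on its own strand.

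Of the 5 feedback and growth-restraint genes measured at E15.5, Chac1 and Sesn2 rose, and the median change was 0.90. Chac1, an enzyme that degrades glutathione, had 1, 1 and 3 in wild type and 8, 11 and 6 in knockout hearts. All 3 knockout hearts were above all wild type hearts, and the ratio of the group means was 5.0 (log2 change 1.85, SE 0.34, limma adjusted p = 0.0146). Chac1 lies on chromosome 2 from 119351229 to 119354381, plus strand (GENCODE M21, GRCm38). The wild type values are at the limit of whole-number rounding, and the value of wild type heart 2 meets the fixed total only if it is taken as negative. With such values set to 0 the limma adjusted p was 0.187. Sesn2 encodes sestrin 2, a leucine sensor that restrains the growth kinase mTORC1, and had 15, 10 and 12 in wild type and 21, 26 and 24 in knockout hearts. The groups did not overlap and the ratio of means was 1.92 (log2 change 0.90, SE 0.22, limma adjusted p = 0.0475). Sesn2 lies on chromosome 4 from 132492032 to 132510501, minus strand. Sesn2 was called in 7 of 16 alternative settings and not in 9. Among the 9 were the fits without wild type heart 2 (limma adjusted p = 0.112) and without knockout heart 2 (0.148), which compare the same hearts. The others included median-of-ratios scaling (0.102), a pseudocount of 0.5 (0.0706), no rounding variance (0.473) and a mean of at least 10 (0.332).

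The remaining genes of this role did not pass the test. Ppp1r15a encodes GADD34, which brings a phosphatase to eIF2 and so closes the feedback loop, and had 43, 38 and 26 in wild type and 57, 62 and 74 in knockout hearts. Its groups did not overlap, with a log2 change of 0.85 (SE 0.19) and a limma adjusted p of 0.0547. Trib3, a pseudokinase that binds ATF4, had 5, 3 and 0 in wild type and 10, 13 and 15 in knockout hearts. Its log2 change of 2.23 was the largest among the members, but its differences at numbers 1 to 3 were 0.87, 1.81 and 4.00, and with an SE of 0.77 the limma adjusted p was 0.379. Trib3 was called in 8 of 15 alternative settings, among them each fit without 1 heart. Those fits repeat each other in pairs, and their p-values rest largely on spread pooled over genes. Eif4ebp1 encodes a repressor of cap-dependent translation and is a known target of ATF4. It went the other way, with 457, 507 and 431 in wild type and 388, 338 and 415 in knockout hearts (log2 change -0.29, SE 0.17, limma adjusted p = 0.474).

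Amino acid synthesis genes had a median change of 0.58 at E15.5, all 7 with a positive sign. In 5 of them every knockout heart lay above every wild type heart, beside 19.3% of all genes. None of the 7 passed the test (limma, 4 at an unadjusted p under 0.05). Asns, the enzyme that makes asparagine, had 23, 10 and 28 in wild type and 70, 82 and 64 in knockout hearts. The lowest knockout value was more than double the highest wild type value, and the ratio of means was 3.54. Its log2 change was 1.88 with an SE of 0.43, its differences at numbers 1 to 3 were 1.56, 2.92 and 1.16, and the limma adjusted p was 0.252. Asns was called in 8 of 16 alternative settings, among them each fit without 1 heart. Those fits repeat each other in pairs, with log2 changes of 2.04, 1.36 and 2.24 without heart 1, 2 or 3 of either group. Their p-values rest largely on spread pooled over genes. The authors' deposited table gives Asns a log2 fold change of 1.76 with a p-value of 1.26e-06, and no adjusted p-value. Of its 30 members at E15.5, 10 had an authors' p-value under 0.05, and 9 of these were higher. The other was Eif4ebp1, with a log2 fold change of -0.354 and an authors' p-value of 0.0335.

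The 3 enzymes of the serine branch had unlike values. Phgdh, the first and committed enzyme of serine synthesis, had 88, 69 and 73 in wild type and 109, 128 and 125 in knockout hearts. The groups did not overlap, with a log2 change of 0.65 (SE 0.16) and a limma adjusted p of 0.0571. Psat1, the second enzyme, ranged from 132 to 162 in wild type and from 140 to 170 in knockout hearts, and Psph, the last enzyme, had 18.3 ± 1.53 and 18.3 ± 1.15 (SD, n = 3). The log2 changes of Psat1 and Psph were 0.07 and 0.00, and their groups overlapped. Exons of Psph overlap those of Cct6a on the opposite strand.

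Proline synthesis had higher values at both enzymes. Pycr1, which reduces pyrroline carboxylate to proline, had 34, 22 and 34 in wild type and 49, 61 and 48 in knockout hearts, with a log2 change of 0.81 (SE 0.19) and a limma adjusted p of 0.0586. Aldh18a1, which makes pyrroline carboxylate from glutamate, ranged from 85 to 110 in wild type and from 113 to 137 in knockout hearts, again without overlap. Cth, which releases cysteine from cystathionine, was at 1 in all 3 wild type and 2 in all 3 knockout hearts, a difference of 1 rounding step.

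The promoters of these genes were searched for the short core of the C/EBP-ATF response element, to which ATF4 binds as a pair with a C/EBP protein. The motif was TGATGNAA on either strand, in RefSeq windows (GRCm38.p6) from 250 bases before to 50 bases after the annotated start. Of 31 members with a window, 9 held at least 1 match, or 29.032%: Nupr1, Trib3, Chac1, Asns, Pycr1, Pck2, Slc7a11, Fgf21 and Vldlr. Among all 27025 genes with a window, 4.511% held a match, and among all 32851 windows, 3.969% did. Of the 8337 genes with a window that were tested at E15.5, 2.759% held one. The members were named as genes of this pathway, so their share is no independent evidence about the element. The stretches below are shown because they lie at the 4 members with a match and a change of at least 0.81 at E15.5, and at Slc7a11, the member with a match and the lowest change. Each has 30 bases, is printed 5′ to 3′ on the strand of the gene, and has the match in capitals. A match in capitals as TTGCATCA or TTACATCA is the motif on the other strand.
Chac1: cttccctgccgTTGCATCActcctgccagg
Asns: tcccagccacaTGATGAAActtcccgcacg
Pycr1: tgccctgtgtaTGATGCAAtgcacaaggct
Trib3: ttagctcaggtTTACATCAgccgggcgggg
Slc7a11: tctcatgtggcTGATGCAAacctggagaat

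The Chac1 stretch lies at chr2:119351038-119351067 on the plus strand, and its match begins 193 bases before the RefSeq start. The others are on minus strand genes: Asns at chr6:7693214-7693243, with the match 23 bases before the start, Pycr1 at chr11:120643833-120643862, 103 bases before, Trib3 at chr2:152344028-152344057, 14 bases after, and Slc7a11 at chr3:50443661-50443690, 66 bases before. The Slc7a11 promoter holds a further match 47 bases before the start. In the GENCODE M21 annotation of the same build, the Asns stretch falls inside the Asns gene, whose annotated start lies farther upstream. The wider context of Chac1, the gene with the largest change among those called at E15.5, and of Pycr1 is given over 200 bases each, Chac1 at chr2:119350992-119351191 and Pycr1 at chr11:120643799-120643998, with the same match in capitals.
Chac1 upstream: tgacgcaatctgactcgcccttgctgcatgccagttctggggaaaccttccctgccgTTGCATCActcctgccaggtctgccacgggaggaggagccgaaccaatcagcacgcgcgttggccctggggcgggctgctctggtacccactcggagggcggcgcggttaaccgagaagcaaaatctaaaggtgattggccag
Pycr1 upstream: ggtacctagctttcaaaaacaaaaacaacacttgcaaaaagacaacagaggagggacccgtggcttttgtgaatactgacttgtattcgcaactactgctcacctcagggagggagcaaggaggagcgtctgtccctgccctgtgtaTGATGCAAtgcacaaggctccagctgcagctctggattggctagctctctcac

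A match did not go with 1 direction or size. The 7 measured members with a match had a median log2 change of 0.81 at E15.5, from -0.97 for Slc7a11 to 2.23 for Trib3, and 19 members without one had a median of 0.61, from 0.00 to 1.42. Of the 3 called genes, Chac1 had a match while Mthfd2 and Sesn2 had none in this window. The endoplasmic reticulum stress element, searched on both strands in its full spaced form, was in 0 of the 31 member promoters and in 0.119% of all windows. A match is a run of letters, and neither its presence nor its absence here says where a factor was bound.

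Folate genes of the mitochondria were higher at E15.5, and the cytosolic one differed less. Mthfd2, the mitochondrial enzyme that oxidises methylene-tetrahydrofolate, had 43, 32 and 43 in wild type and 70, 81 and 70 in knockout hearts. The groups were well apart, with a ratio of means of 1.87 (log2 change 0.90, SE 0.17, limma adjusted p = 0.00987). The gene lies on chromosome 6 from 83305691 to 83325908, minus strand. Mthfd2 kept its call without any 1 heart and was called in 12 of 16 alternative settings, more than any other member. The fits without 1 heart repeat each other in pairs and are not separate checks. Its limma adjusted p was 0.473 without the rounding variance, 0.583 with the prior degrees of freedom capped and 0.529 without trend and robust options. It was 0.332 among genes with a mean of at least 10. Mthfd1l, which forms formate in mitochondria, had 22, 20 and 16 in wild type and 26, 28 and 33 in knockout hearts, without overlap (log2 change 0.57, SE 0.20, limma adjusted p = 0.179). Aldh1l2, the mitochondrial formyl-tetrahydrofolate dehydrogenase, had 45, 56 and 52 in wild type and 81, 71 and 75 in knockout hearts, without overlap (log2 change 0.56, SE 0.16, limma adjusted p = 0.101). Shmt1, the cytosolic enzyme that splits serine into glycine and a one-carbon unit, had 62.7 ± 7.77 and 70.3 ± 7.77 (SD, n = 3), with overlapping groups and a log2 change of 0.17. The difference between the mitochondrial genes and Shmt1 was not tested.

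Among the amino acid transporters 3 of 4 were higher in every knockout heart, beside 19.3% of all genes. Of the 4, 0 passed the test (limma, 3 at an unadjusted p under 0.05, beside 13.9% of all genes). Slc7a5 and Slc3a2 encode the light and heavy chains of the large neutral amino acid carrier. Slc7a5 had 48, 55 and 46 in wild type and 73, 67 and 76 in knockout hearts, without overlap (log2 change 0.53, SE 0.16, limma adjusted p = 0.126). Slc3a2 had 75, 81 and 45 in wild type and 98, 91 and 127 in knockout hearts, without overlap but with a wide spread (log2 change 0.67, SE 0.26, limma adjusted p = 0.313, and 0.27 on the log2 scale without heart 3). Slc7a1, the cationic amino acid carrier, ranged from 72 to 78 in wild type and from 98 to 104 in knockout hearts, also without overlap and with a log2 change of 0.42 (limma adjusted p = 0.211). Slc7a11, the cystine and glutamate exchanger that shares the heavy chain Slc3a2, had 22, 30 and 17 in wild type and 14, 5 and 18 in knockout hearts. Its groups overlapped, with a log2 change of -0.97 (SE 0.64, limma adjusted p = 0.615). Slc7a11 was called lower in 5 of 16 alternative settings, without heart 1 or heart 3 of either group and without the filter on low values. Fits without either heart of a number compare the same hearts, so these are not separate checks. The Slc7a11 log2 change was -0.27 without heart 2.

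Of the secreted factors and the receptor, 0 passed the test at E15.5 (limma, 1 at an unadjusted p under 0.05). Stc2, a secreted glycoprotein, had 38, 25 and 15 in wild type and 45, 58 and 68 in knockout hearts. The groups did not overlap, with a log2 change of 1.18 (SE 0.44) and a limma adjusted p of 0.413. Gdf15, a circulating stress cytokine, was low, with 3, 3 and 2 in wild type and 4, 5 and 10 in knockout hearts. The Gdf15 log2 change was 0.93 (SE 0.33, limma adjusted p = 0.200), and the value of wild type heart 3 meets the fixed total only if taken as negative. Vldlr, the very low density lipoprotein receptor, had 222 ± 36.2 and 265 ± 36.2 (SD, n = 3), with overlap.

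**Figure D2:**
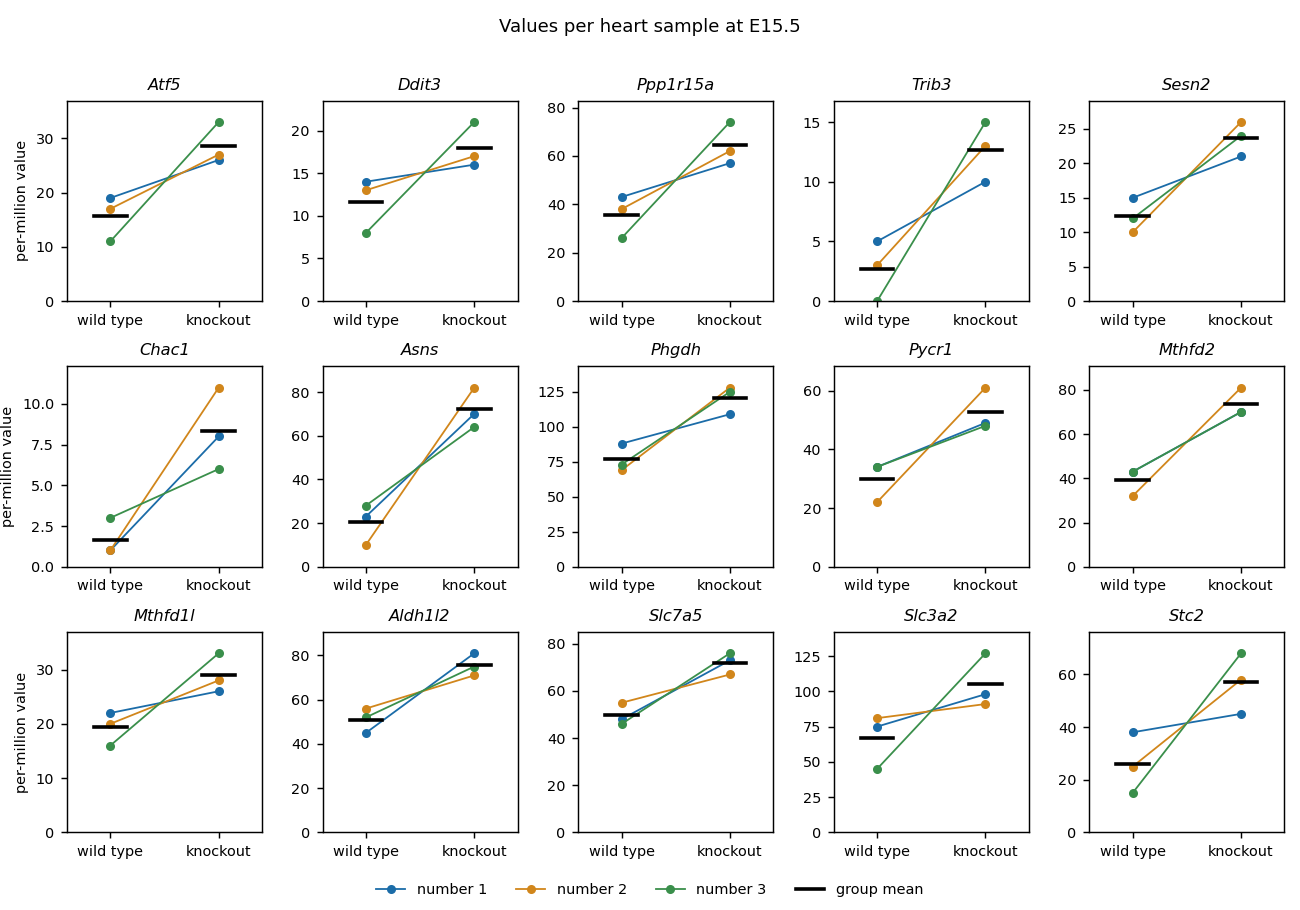
Per-million values of 15 members in each E15.5 heart, wild type and knockout, with lines joining samples of the same replicate number and black bars at the group means. In Asns the knockout hearts lie from 64 to 82 and the wild type hearts from 10 to 28, whereas in Slc3a2 and Stc2 the gap between groups differs widely between numbers.

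The hearts did not contribute equally, and the numbers are only names that carry no order. Median differences between same-numbered knockout and wild type hearts were 0.32, 0.49 and 0.73 on the log2 scale at numbers 1, 2 and 3 over the 30 members, against 0.00, 0.10 and 0.00 over all genes. Among the 28 members with a positive change, the difference was largest at number 3 in 14, at number 2 in 11 and at number 1 in 3, with equal differences, as in Cth, given to the lower number. The roles fell on different numbers. It was largest at number 3 in 4 of 5 transcription factors and cofactors, 3 of 3 transporters and 3 of 3 secreted factors or receptors, and at number 2 in 5 of 7 amino acid synthesis genes. Asns had its largest difference at number 2 (2.92), as had Mthfd2 (1.31), while Atf5, Ppp1r15a (1.47), Slc3a2 (1.48), Stc2 (2.11) and Gdf15 (1.87) had theirs at number 3. In 20 of the 28 the sign was positive at every number. Without heart 3 the log2 change was 0.54 for Atf5, 0.55 for Ppp1r15a, 0.35 for Mthfd1l, 0.71 for Stc2, 0.45 for Gdf15 and 1.34 for Trib3, and without heart 2 it was 0.50 for Pycr1, each less than the value over all hearts by more than 1.5 times.

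Other genes also moved at number 3. Egr1, an immediate-early gene that is no member and was chosen after its values were seen, had 25, 26 and 6 in wild type and 29, 28 and 49 in knockout hearts. Cardiomyocyte markers in sum were farthest apart there, at 24975 against 16328, and erythroid markers stood at 67 against 236, after 172 against 129 at number 1 and 143 against 159 at number 2. Epicardial sums were 143 against 237 at number 3. The part of these differences in the members' values was not tested, and because same-numbered values add to a fixed total, an unusual wild type heart and an unusual knockout heart of 1 number cannot be told apart. The median change of the members was 0.41 without heart 3 of either group, 0.60 without heart 2 and 0.66 without heart 1. Without heart 3, 26 of the 30 members were positive, and 7 rose without the wild type heart and 6 without the knockout heart.

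**Figure D3:**
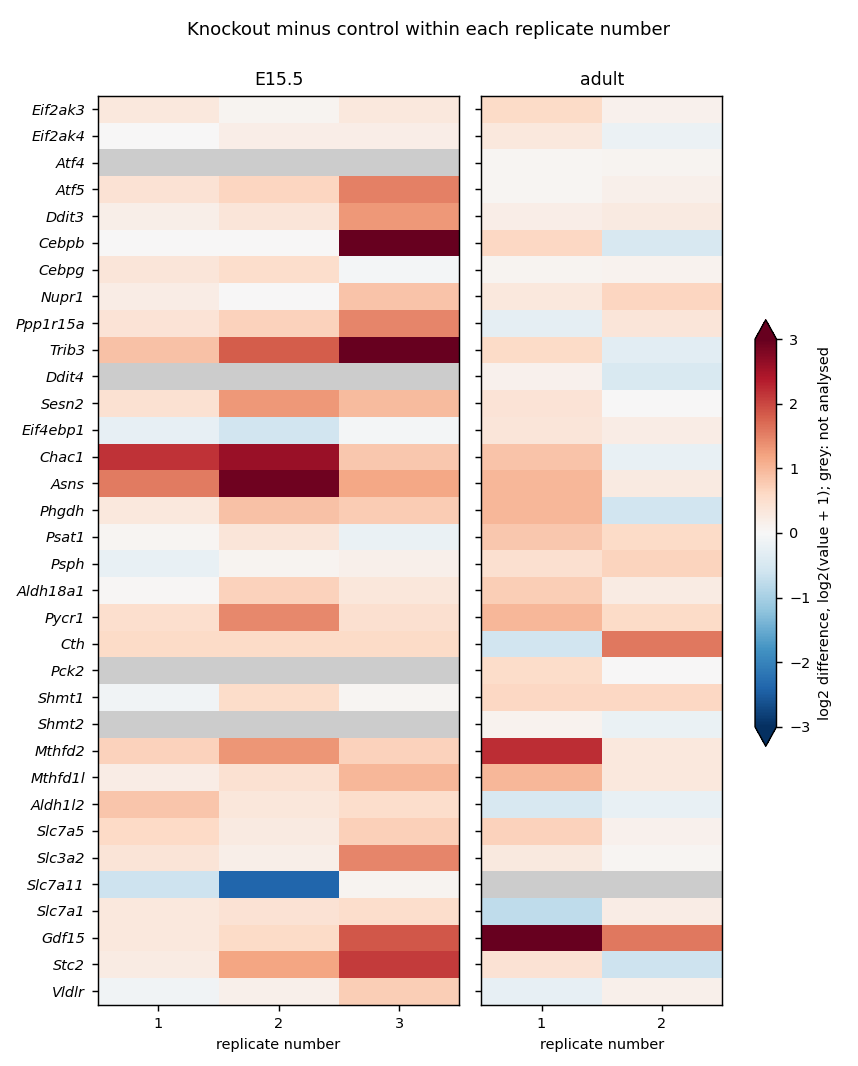
Log2 difference between knockout and control at each replicate number for every member, at E15.5 (3 numbers) and in the adult (2 numbers), with colours limited at 3 in either direction and grey where a gene was not analysed. At E15.5 the darkest column is number 2 for 5 of 7 amino acid synthesis genes and number 3 for 4 of 5 transcription factors and cofactors.

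Further genes of the pathway, from lists that overlap in part, were compared in the same fit. Of 20 other genes counted as ATF4 targets, 18 were positive, the median being 0.31. In 13 of the 20, or 65%, every knockout heart lay above every wild type heart, beside 19.3% of all genes. Of the 20, 0 passed the test (limma, 9 at an unadjusted p under 0.05, or 45%, beside 13.9% of all genes). Gpt2, a mitochondrial alanine aminotransferase, had the largest change among them that did not overlap, with 12, 11 and 10 in wild type and 20, 20 and 21 in knockout hearts (log2 change 0.83, limma adjusted p = 0.0641). Of 15 other genes around eIF2, 13 were positive with a median of 0.13. In 4, or 26.7%, every knockout heart lay above every wild type heart, beside 19.3% of all genes. Crebrf had 31, 34 and 16 in wild type and 38, 35 and 54 in knockout hearts (log2 change 0.67, limma adjusted p = 0.541). Atf3, a stress-induced factor named after its values were seen, had 27, 30 and 28 in wild type and 43, 41 and 42 in knockout hearts, a tight difference of 0.55 on the log2 scale (limma adjusted p = 0.130).

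Neighbouring pathways showed smaller medians. Of 14 genes of the unfolded protein response of the endoplasmic reticulum, 11 were positive with a median of 0.16, and Herpud1 had 170, 154 and 203 in wild type and 236, 253 and 204 in knockout hearts (log2 change 0.40, limma adjusted p = 0.285). Of 18 other one-carbon and serine-glycine genes, 13 were positive with a median of 0.18. Slc6a9, a glycine transporter, had the largest change among them, with 7, 6 and 6 in wild type and 11, 12 and 12 in knockout hearts (log2 change 0.79, limma adjusted p = 0.146). Of 7 mitochondrial unfolded protein response genes, 3 were positive with a median of -0.04, and Hspe1, a mitochondrial co-chaperonin, had 82, 91 and 101 in wild type and 73, 64 and 54 in knockout hearts (log2 change -0.52, limma adjusted p = 0.146). In these 4 lists other than the ATF4 targets 0 genes passed the test (limma, 2, 4, 3 and 2 at an unadjusted p under 0.05, in the order given). These were 13.3%, 28.6%, 16.7% and 28.6% of the lists, beside 13.9% of all genes.

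In the adult apex, Gdf15, Mthfd2 and Shmt1 rose in mCKO, 3 of 33 members, where 2.34% of all 14835 genes tested were called higher. No member fell (limma, 0 also at an unadjusted p under 0.05), beside 0.95% of all genes. The median change of the members was 0.23 and that of all genes 0.08, with 27 members positive beside 62.3% of all genes. The members' median was 0.13 without mCKO sample 1, 0.15 without CTR sample 1 and 0.33 without CTR sample 2. Among the 16 members with a mean of at least 10 it was 0.08, with 11 positive, and that of all such genes was 0.07. At an unadjusted p under 0.05 there were 6 members, or 18.2%, beside 12.4% of all genes. In 18 members, or 54.5%, both mCKO values were above both CTR values, beside 29.3% of all genes, and Aldh1l2 was the 1 member with both below, beside 12.8%. With 2 samples a group and the block, 1 residual degree of freedom is left per gene. The SEs and p-values of the adult members thus rest on spread pooled over genes rather than on each gene's own. For some other genes with a wide spread, such as Postn and Col3a1, the fit gave the pooled spread almost no weight.

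The 3 called adult genes differ in how far their own samples carry the call. Gdf15 had 1 and 4 in CTR and 16 and 14 in mCKO. Its lowest mCKO value was above 3 times the highest CTR value, and the ratio of means was 6.0 (log2 change 2.34, SE 0.30, limma adjusted p = 4.77e-12). Gdf15 lies on chromosome 8 from 70629393 to 70632456, and Shmt1 on chromosome 11 from 60788104 to 60811718, both on the minus strand. Without the block the Gdf15 adjusted p was 0.0808, without the rounding variance 0.607, and with the prior degrees of freedom capped at 4 it was 0.849. Mthfd2 had 2 and 7 in CTR and 13 and 9 in mCKO, close at number 2 and far apart at number 1 (log2 change 1.27, SE 0.29, limma adjusted p = 0.000939). The Mthfd2 adjusted p was 0.262 without the block, 0.144 without CTR sample 1 and 0.0503 without mCKO sample 1. Shmt1 had 14 and 14 in CTR and 22 and 22 in mCKO, with no spread within groups at this rounding (log2 change 0.62, SE 0.19, limma adjusted p = 0.0413). Its adjusted p was 0.0693 under median-of-ratios scaling and 0.516 without the trend and robust options. Exons of Shmt1 overlap those of Smcr8 on the opposite strand. The authors' deposited p-values were 0.0252 for Gdf15, 0.266 for Mthfd2 and 0.383 for Shmt1. Among the 33 adult members, 1 had an authors' p-value under 0.05.

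**Figure D4:**
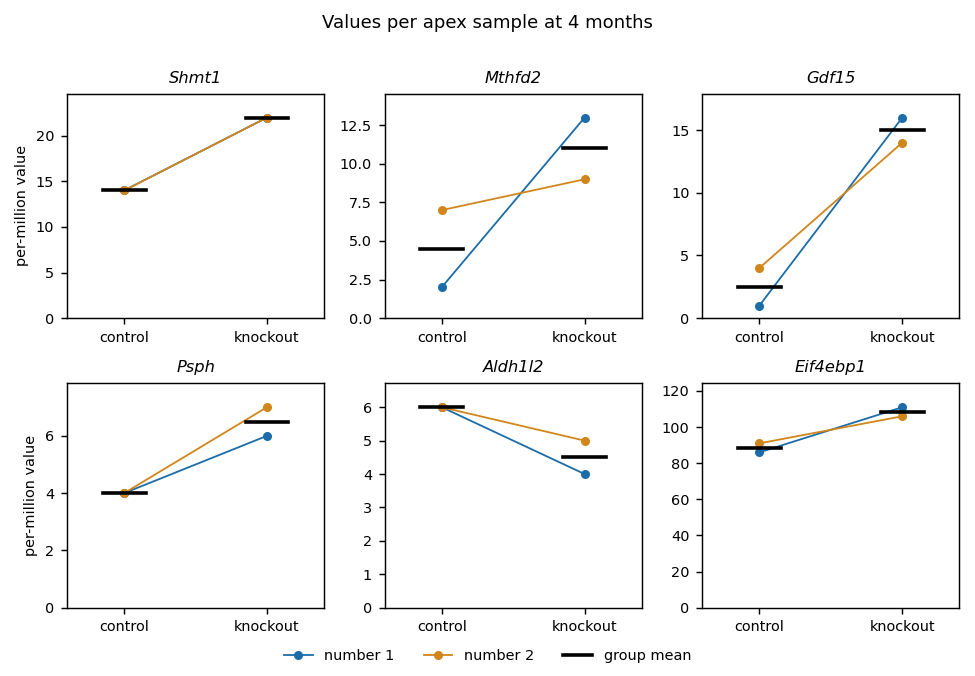
Per-million values of Shmt1, Mthfd2, Gdf15, Psph, Aldh1l2 and Eif4ebp1 in each adult apex sample, CTR and mCKO, with lines joining samples of the same replicate number and black bars at the group means. Gdf15 lies at 1 and 4 in CTR and at 14 and 16 in mCKO, while Aldh1l2 lies at 6 in both CTR samples and at 4 and 5 in mCKO.

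Among the kinases and transcription factors of the adult apex no change passed the test. Atf4 itself, measured only here, had 105 and 104 in CTR and 109 and 110 in mCKO (log2 change 0.07, limma adjusted p = 0.943), and ATF4 protein was not measured. All 6 transcription factors and cofactors had a positive sign and 5 were higher without overlap, beside 29.3% of all genes. But the median change of the 6 was 0.10, and 0 passed the test (limma, 0 at an unadjusted p under 0.05). Ddit3 had 20 and 19 in CTR and 23 in both mCKO samples, and Nupr1 had 7 and 6 against 9 and 10. Feedback genes had a median of 0.17, and 1 of 6, Eif4ebp1, did not overlap, with 86 and 91 in CTR and 111 and 106 in mCKO (log2 change 0.29, SE 0.15, limma adjusted p = 0.393). Chac1 had 4 and 6 against 8 and 5, and Sesn2 had 5 and 6 against 7 and 6, so the 2 feedback genes called at E15.5 overlapped or touched here. Ddit4, a restrainer of mTORC1, had 81 and 98 in CTR and 89 and 71 in mCKO.

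Adult amino acid synthesis genes were all low and all positive. Their 8 changes had a median of 0.54, and 5 genes were higher without overlap, beside 29.3% of all genes. Of the 8, 0 passed the test (limma, 2 at an unadjusted p under 0.05). Psph had 4 and 4 in CTR and 6 and 7 in mCKO (log2 change 0.58, SE 0.32, limma adjusted p = 0.447). Psat1 had 3 and 3 against 6 and 5, Asns 3 and 4 against 7 and 5, Pycr1 1 and 1 against 3 and 2, and Aldh18a1 8 and 10 against 14 and 12. Each of these gaps is a few rounding steps. Phgdh had 1 and 2 against 3 and 1, Cth 2 and 0 against 1 and 2, and Pck2, the mitochondrial enzyme that makes phosphoenolpyruvate, 10 and 12 against 15 and 12. These 3 overlapped or touched.

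The remaining adult members were mixed. Shmt2, the mitochondrial partner of Shmt1, had 43 and 48 in CTR and 46 and 42 in mCKO (log2 change -0.05). Mthfd1l had 2 and 3 against 5 and 4, and Aldh1l2 had 6 and 6 against 4 and 5 (log2 change -0.35, SE 0.31, limma adjusted p = 0.785). Slc7a5 had 7 and 9 against 12 and 10 and Slc3a2 38 and 41 against 47 and 43, both without overlap. Slc7a1 had 58 and 43 against 34 and 50, Stc2 13 and 19 against 18 and 12, and Vldlr 304 and 266 against 256 and 294, all with overlap. Eif2ak3 had 7 and 9 against 11 and 10, without overlap, and Eif2ak4 7 and 8 against 9 and 7.

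Cell type markers differed between the adult groups as well. Fibroblast markers, 9 genes, summed to 1333 and 1657 in CTR and 2766 and 2441 in mCKO. Of the 9, 8 were higher in both mCKO samples, beside 29.3% of all genes. Postn had 20 and 69 in CTR and 237 and 187 in mCKO (log2 change 2.46, limma adjusted p = 0.784). Its test rested almost wholly on its own spread, with 1 residual degree of freedom. Epicardial sums were 60 and 24 against 73 and 108, and cardiomyocyte sums of 12 genes were 66287 and 67820 against 65209 and 63671. Of the 12 cardiomyocyte markers, 6 had positive and 6 negative changes, with a median log2 change of 0.01. Myh6, the largest part of the sum, had 19222 and 19325 against 17008 and 16906. Macrophage sums were 443 and 455 against 549 and 538, and stratified epithelium sums 146 and 147 against 185 and 182. Of the latter, Perp alone had 140 and 142 against 180 and 178. The 4 stratified epithelium markers were 2 positive and 2 negative, with a median log2 change of -0.07. Endothelial sums, 931 and 899 against 846 and 877, and smooth muscle and pericyte sums, 839 and 826 against 795 and 810, were lower in mCKO without overlap. The latter sum is mostly Rgs5, with 586 and 551 against 498 and 534. Of its other markers, Kcnj8, Myh11 and Pdgfrb had negative changes. Acta2, with 110 and 105 against 137 and 143, and Cspg4 had positive ones, and the median log2 change was -0.03. Erythroid sums were 58 and 24 against 53 and 126, and those of liver and skeletal muscle were at most 3. Of the markers, Aldh1a2 rose, as did Myh7, a myosin heavy chain raised in stressed adult heart, with 270 and 468 in CTR and 1090 and 892 in mCKO (log2 change 1.47, limma adjusted p = 3.29e-16). The part of these cells in the higher Gdf15, Mthfd2 and Shmt1 values was not tested.

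Among further pathway genes in the adult, 4 passed the test, where 2.34% of all genes tested were called higher and 0.95% lower. Whether these lists were called more often than all genes was not tested. Of 29 other ATF4 targets, 17 were positive and 11 negative with a median of 0.17, and Cdkn1a and Rcan1 rose. In 13 of the 29 both mCKO values were above both CTR values, beside 29.3% of all genes. In 6 both were below, beside 12.8% of all genes. Gpt2 was among these 6, with 46 and 47 in CTR and 34 in both mCKO samples. Its log2 change was -0.44 (limma adjusted p = 0.107). Cdkn1a, a cell cycle inhibitor, had 48 and 44 in CTR and 88 and 92 in mCKO (log2 change 0.95, SE 0.15, limma adjusted p = 6.41e-08). Rcan1, an inhibitor of calcineurin, had 79 and 86 in CTR and 126 and 120 in mCKO (log2 change 0.57, limma adjusted p = 0.00608). Eif2ak2, the eIF2 kinase that senses double-stranded RNA, was the 1 of 21 other genes around eIF2 to rise, with 15 and 23 in CTR and 34 and 27 in mCKO (log2 change 0.68, limma adjusted p = 0.00667). Mtr, the methionine synthase that uses methyl-tetrahydrofolate, was the 1 of 26 other one-carbon and serine-glycine genes to fall, with 138 and 112 in CTR and 49 and 74 in mCKO (log2 change -1.03, SE 0.15, limma adjusted p = 1.98e-09). Of 22 unfolded protein response genes of the endoplasmic reticulum, 14 were positive with a median of 0.05. Of 12 mitochondrial ones 2 were positive with a median of -0.10. In both lists 0 passed (limma, 0 and 1 at an unadjusted p under 0.05).

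Set side by side, the 2 models shared 1 called member, Mthfd2. Both models had every knockout value above every control value in 11 of the 29 genes measured in each: Eif2ak3, Atf5, Ddit3, Asns, Aldh18a1, Pycr1, Mthfd2, Mthfd1l, Slc7a5, Slc3a2 and Gdf15. Among all 9770 genes tested in both models, 8.5% did so. In Eif4ebp1 and Aldh1l2, 2 of the 29, the groups did not overlap in either model and differed in opposite directions, beside 5.52% of these genes. Levels cannot be compared between the tables, which were normalized separately and come from whole embryonic heart and adult apex. Asns had group means of 20.3 and 72.0 at E15.5 and of 3.5 and 6 in the adult, and Gdf15 had 2.67 and 6.33 at E15.5 and 2.5 and 15 in the adult. Chac1 and Sesn2 passed only the E15.5 test, and Shmt1 and Gdf15 only the adult test. Whether any change differed between the models was not tested.

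**Figure D5:**
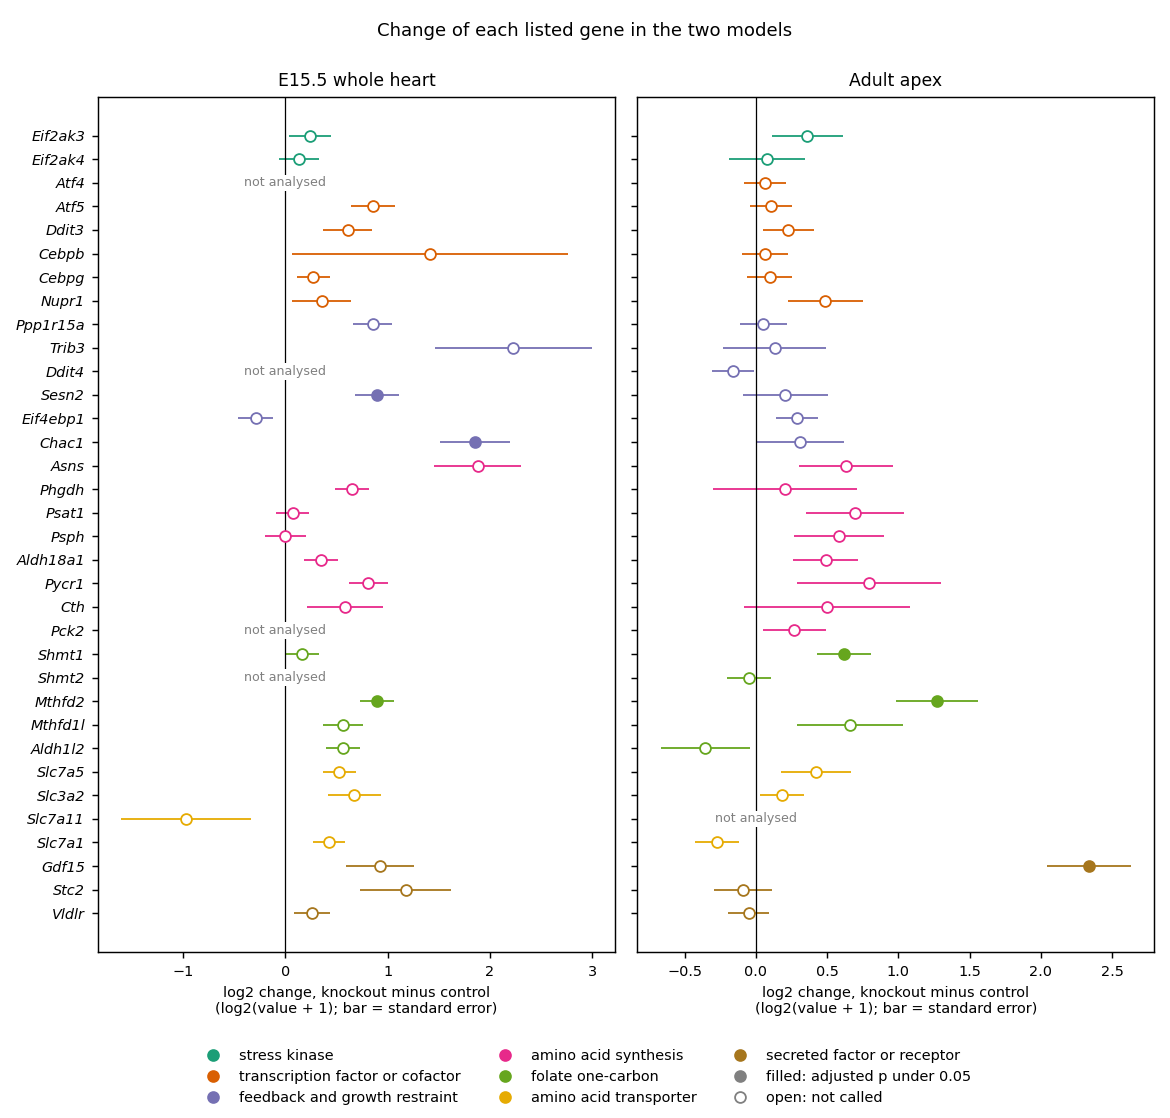
Log2 change with its SE for the 30 members measured at E15.5 and the 33 measured in the adult, knockout minus control, grouped by role, with filled points for an adjusted p under 0.05. Filled points are Sesn2, Chac1 and Mthfd2 at E15.5 and Shmt1, Mthfd2 and Gdf15 in the adult, and the bar of Cebpb at E15.5 is the widest.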

How the data were processed

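Total RNA from frozen mouse hearts was extracted with RNeasy columns and DNase, per the labels' protocols. The submitters' processing notes name HISAT2, HTSeq and the build mm10 and give no versions. The authors deposited a score per gene and sample, a per-million value given as a whole number. The sources used here do not state whether it is CPM or TPM, nor how it came to add to fixed totals. Library depth is therefore unknown, and no counting interval can be given. The deposited tables also hold the authors' log2 fold changes and p-values, used only where named.

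Each table was fitted on its own with limma 3.58.1 (R 4.3.3), knockout against control, on log2(value + 1), which understates the change of low genes. Genes were kept with a value of at least 1 in as many samples as a group holds (3 at E15.5, 2 in the adult), and all members measured passed. The replicate number was a block. The variance of rounding was taken as 0.0833 on the scale of the values. It was converted to the log2 scale at each gene's mean and then added to the gene's residual variance. eBayes used trend and robust options, and the Benjamini-Hochberg adjustment ran over all genes tested, with calls under 0.05. Samples with the same number deviated from their group means with correlations of -0.92 to -0.97 over E15.5 genes and -0.93 over adult genes, as fixed totals give. The correlation comes from the values, since the labels state no pairing. Residual degrees of freedom were 2 and 1, and the median prior had 27.5 (E15.5) and was infinite (adult). On simulated data made with such totals and rounding the fit gave nearly all changed genes their true sign, but its false calls exceeded the nominal share in both models.

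The members, the lists and this fit were chosen with earlier results of these data known. Values in every sample are given for members called in a table, or without overlap between groups, with an absolute log2 change of at least 0.5 and a mean of at least 5 there. Other genes of the pathway are named where called, or else 1 a list, the largest change without overlap at a mean of at least 5. A number of further members are given by sample for completeness. Gene positions and exon overlaps come from GENCODE M21 and promoters from RefSeq windows (GRCm38.p6), where 31 of 35 members matched.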

Additional observations from a re-analysis of the deposited data

Results flagged for a closer look

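In 2 of the 29 genes measured in both models the groups did not overlap in either table and differed in opposite directions, beside 5.52% of the 9770 genes tested in both models, a share close to that of the members. Eif4ebp1 had log2 changes of -0.29 in E15.5 hearts and 0.29 in the adult apex. Aldh1l2 had 0.56 at E15.5 and -0.35 in the adult, where its values lie between 4 and 6. None of the 4 changes passed limma's test, and the difference between the models was not tested, since the tables were normalized separately.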

How the results depend on the processing

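No called member changed direction under any alternative. The members' median change lay between 0.41 and 0.66 at E15.5 without any 1 heart and between 0.13 and 0.33 in the adult without any 1 sample. Counts of calls, as members higher and then all genes higher and lower, were 3, 72 and 14 at E15.5 and 3, 347 and 141 in the adult. With no replicate block, E15.5 gave 8 members, 430 and 174 genes, and the adult gave 1 member. At E15.5, 0 members and 0 genes in either direction were called by limma with the block but no rounding variance, with the prior degrees of freedom capped at 4, without trend and robust options, and with a mean of at least 10 (1422, 1105, 1166 and 1100 genes, and 13, 13, 16 and 12 members, at an unadjusted p under 0.05). A pseudocount of 0.5 gave 39 and 7 genes, and one of 5 gave 8 members, 195 and 37 genes. No filter on low values gave 13 members, 480 and 121 genes, and 1 member lower. Values with a changed sign set to 0 gave 1 member, 32 and 6 genes. Median-of-ratios scaling gave 1 member, 12 and 7 genes at E15.5, where 63.2% of calls were higher instead of 83.7%, and 286 and 210 genes in the adult, 57.7% instead of 71.1%. The sign of Psph at E15.5 and of Ppp1r15a in the adult turned negative under it. In the adult, 1 member, 833 and 297 genes were called without the rounding variance, 1 member with a mean of at least 10, and 0 members and 0 genes with the capped prior (limma, 2 members and 856 genes at an unadjusted p under 0.05). Leaving out 1 heart gave 6 to 10 members higher and 0 to 1 lower, and 171 to 419 genes higher and 39 to 85 lower, at E15.5. There, fits without either heart of a number compare the same hearts and are no separate checks. Leaving out 1 adult sample, without the block, gave 2 to 4 members higher and 0 to 1 lower, and 379 to 955 genes higher (604 without CTR 1, 607 without mCKO 2) and 222 to 297 lower (225 without CTR 1, 296 without CTR 2), with the lone sample assumed to vary like the other group. The cause of these shifts was not tested. Depth is unknown, and rounding limits every member with values of a few units.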
